A study of Drosophila melanogaster with 10 samples.

Results

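The genes described here encode proteins of the mitochondrial ribosome in *Drosophila melanogaster*. They were taken as all genes whose only symbol on a probe set was mRpL or mRpS followed by a number, which gave 64 of the 10844 genes with 1 symbol on the array. Of these, 43 are named for the large subunit (mRpL) and 21 for the small subunit (mRpS). Their 66 probe sets were reduced to 1 per gene, the one with the higher mean signal, and 1 further probe set that names mRpS10 together with a second gene was left out.

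The mitochondrial ribosome translates the few messages of the mitochondrial genome, which encode core subunits of the respiratory chain and of ATP synthase. Its proteins are all made from nuclear genes, translated in the cytosol and imported, and are assembled on ribosomal RNAs that the mitochondrion transcribes itself. Some have counterparts in the bacterial ribosome, and others are found only in mitochondria. Neurons depend on this system for the ATP that supports synapses and axons.

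RNA came from mushroom body neurons, a paired brain structure for olfactory learning whose neurons prune larval axon branches after pupariation. Animals of both ages were yw/w, carried 1 copy each of the transgenes UAS-mCD8::GFP, a membrane-bound green fluorescent protein, and UAS-EcRB1[W650A], a dominant negative ecdysone receptor, and were OK107-GAL4/+. The OK107-GAL4 driver, active in mushroom body neurons, expressed both transgenes. Neurons were taken 5 h after puparium formation for 3 arrays, and at its start, 0 h, for another 6. Another array, titled as 5 h and described as 0 h, enters no comparison. Each sample pooled 40 laser captures of about 100 cell bodies, and about 22 ng of its RNA was amplified in 2 rounds. The labels call the samples biological replicates without giving the number of animals. The y,w arrays with which the series design compares these samples were not analysed here, so the comparison is of age under the dominant negative receptor and not of receptor function.

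Values are log2 signals, so a difference of 1 is a doubling. Signal depends on the probes as well as the RNA, and levels of different genes are not compared as amounts. In RNA from many captured cells, fewer cells of a type and less RNA per cell cannot be told apart. Background was set at 3.73, the highest signal among 8 controls for mouse and yeast transcripts. The arrays at 0 h fell into replicates 1 to 3 and replicates 4 to 6: across probe sets, which are not independent, Pearson r was 0.989 to 0.991 within the first set, 0.970 to 0.981 within the second and 0.948 to 0.974 between them, and no batch in the labels runs along this line. All 9 mushroom body markers measured, among them ey, dac and rut, were above background on every array. The mean log2 signal of 11 glial marker genes was 6.03 to 6.18 on the arrays at 5 h and 5.13 to 5.77 at 0 h, and 3 of them (nrv2, bdl and wun2) were called higher, while gcm was below background at both ages. In all, 7 of the 11 read higher at 5 h and 4 lower (loco, moody, Gs2 and gcm, none past the threshold). Their median log2 difference was 0.23, which was 0.04 after repeated quantile normalization and 0.28 after centring each array on its median. It was 0.03 against 0 h replicates 1 to 3 and 0.70 against replicates 4 to 6. The 3′ minus 5′ difference of the actin controls, a sign of RNA integrity and amplification length, averaged 8.55 ± 0.08 in the 3 arrays at 5 h and 7.81 ± 0.28 in the 6 at 0 h (± SD), with an exact two-sided permutation p of 0.012, the smallest 9 arrays allow. The same difference for the GAPDH controls did not separate the ages, at 5.49 to 5.64 at 5 h and 4.36 to 5.66 at 0 h (exact two-sided permutation p = 0.17). The glial markers and the actin difference move with age alongside the results below, and their part in them was not tested. The actin difference was entered as a covariate in 1 alternative. It ran from 8.47 to 8.63 at 5 h and from 7.45 to 8.10 at 0 h, without overlap. That fit therefore cannot tell it apart from age.

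The mitochondrial ribosomal protein genes were expressed as a set. At both ages 63 of the 64 had a mean above background, and 62 were above it on all 9 arrays. The exception at both ages was mRpL41, which averaged 2.90 ± 0.18 over the 3 arrays at 5 h and 3.07 ± 0.25 over the 6 at 0 h (± SD), and so was not measured above background. mRpL18, whose bacterial counterpart binds 5S RNA, averaged 4.34 ± 0.10 at 5 h and 4.10 ± 0.29 at 0 h, and dropped below background on 0 h replicate 5, at 3.61.

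The brightest large-subunit probe sets were those of mRpL36, mRpL16 and mRpL13, at 7.76, 7.93 and 7.48 on average at 5 h, against 8.0, 7.73 and 7.82 at 0 h. The dimmest, after mRpL41 and mRpL18, was that of mRpL32, at 4.95 ± 0.31 at 5 h and 4.93 ± 0.60 at 0 h. In the small subunit the brightest were mRpS18A, mRpS7 and mRpS11. Their means were 7.45, 7.60 and 7.16 at 5 h, against 8.52, 7.78 and 7.38 at 0 h. The dimmest were mRpS34, mRpS25 and mRpS17, at 4.91, 6.27 and 5.67 at 5 h, against 5.35, 5.14 and 5.58 at 0 h. These orders are of probe signal and not of messenger abundance.

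Between the ages, 1 of the 64 genes rose and 1 fell. The test was limma on all 13966 probe sets with Benjamini-Hochberg adjustment and a threshold of 0.05. By it 1.01% of all probe sets were called higher at 5 h and 0.236% lower, against 1.56% of these genes in each direction. The other 62 genes did not pass, and 17 of the 64 had an unadjusted p under 0.05, beside 2051 of all 13966 probe sets. The median log2 difference, 5 h minus 0 h, was -0.09 over the 64 genes and -0.07 over all probe sets, and after repeated quantile normalization -0.17 and -0.03. Without overlap between the ages, 5 genes were higher and 5 lower at 5 h, against 5.39% and 4.4% of all probe sets. Repeating quantile normalization gave 2 genes higher and 3 lower, beside 153 and 101 of all probe sets. Centring each array on its median gave 1 higher and 0 lower, beside 140 and 20 of all probe sets.

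**Figure D1:**
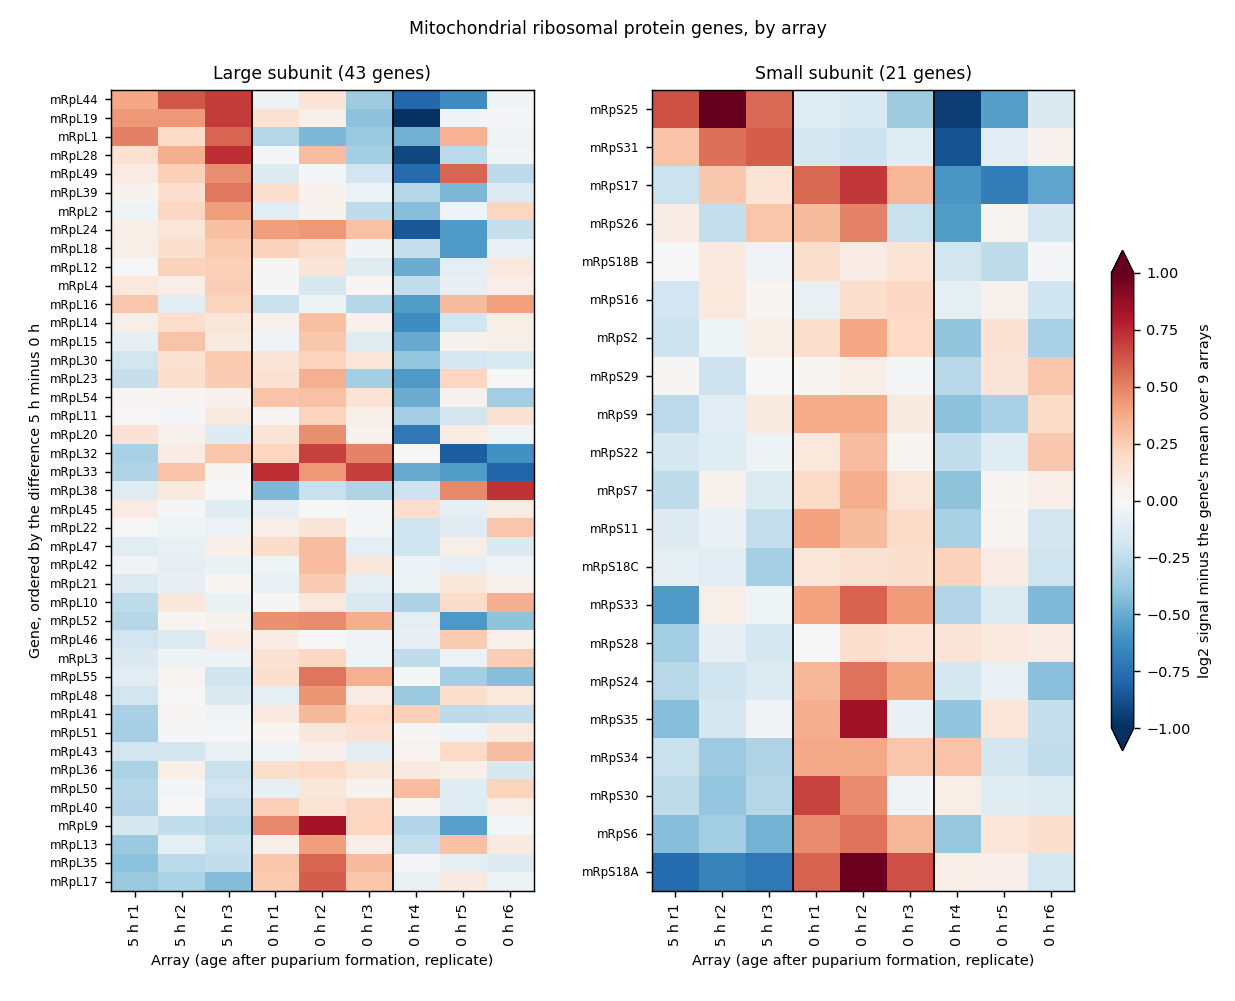
Log2 signal of each of the 43 large-subunit genes (left) and 21 small-subunit genes (right) on each array, minus the gene's mean over the 9 arrays; rows run by the difference 5 h minus 0 h, black lines part the 5 h arrays, 0 h replicates 1 to 3 and 0 h replicates 4 to 6, and colours are capped at 1 in either direction. mRpS25 is high and mRpS18A low on all 3 arrays at 5 h, and 53 of the 64 genes read lower in 0 h replicates 4 to 6 than in replicates 1 to 3, 36 after repeated quantile normalization.

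The gene that rose was mRpS25, a small-subunit protein found in mitochondrial but not bacterial ribosomes. It read 6.16, 6.58 and 6.08 at 5 h, against a lowest value of 4.58, a median of 5.26 and a highest of 5.40 at 0 h. All 3 arrays at 5 h lay above all 6 at 0 h. The log2 difference was 1.13 ± 0.19 (SE), with a 95% confidence interval of 0.72 to 1.55, a 2.19-fold higher signal at 5 h (limma, adjusted p = 0.020).

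The gene that fell was mRpS18A, 1 of 3 fly relatives of the bacterial small-subunit protein S18. Its mammalian counterpart sits in the large subunit, despite the name. It read 7.39, 7.50 and 7.45 at 5 h, against a lowest value of 7.98, a median of 8.49 and a highest of 9.14 at 0 h. Again no array of one age overlapped the other. The log2 difference was -1.07 ± 0.22 (SE), with a 95% confidence interval of -1.57 to -0.58, a 2.11-fold lower signal at 5 h (limma, adjusted p = 0.044). The other relatives of S18 gave differences of 0.03 for mRpS18B and -0.26 for mRpS18C, and neither passed.

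Neither call held in every refit. Leaving out any 1 of the 3 arrays at 5 h ended both: mRpS25 then had adjusted p of 0.067, 0.13 and 0.077 without replicates 1, 2 and 3, and mRpS18A had 0.14, 0.19 and 0.23 in limma. Leaving out 0 h replicate 2, 3 or 5 ended the call of mRpS18A (limma, adjusted p = 0.052, 0.077 and 0.055). Adding the array with conflicting labels to the 0 h group ended both calls as well (limma, adjusted p = 0.064 for mRpS25 and 0.10 for mRpS18A). With the actin difference as a covariate, limma called no gene of the set and gave an adjusted p of 0.9997 for both. Because the actin difference separates the ages without overlap, this loss of calls does not show its part in them. Median centring and a trended, robust prior ended the call of mRpS18A (limma, adjusted p = 0.076 and 0.055). Over the 19 refits that keep the threshold, the difference of mRpS25 ranged from 0.86 to 1.23 and passed in 14, and that of mRpS18A ranged from -1.45 to -0.91 and passed in 9.

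Some genes separated the ages without passing the test. mRpL44, whose protein has a ribonuclease III-like fold and is needed for large-subunit assembly in mammals, read 6.99, 7.22 and 7.30 at 5 h, against 5.81, 6.40 and 6.73 as lowest, median and highest at 0 h (log2 difference 0.86, limma adjusted p = 0.058). mRpS31, another protein specific to mitochondria, read 6.88, 7.15 and 7.21 at 5 h, against 5.72, 6.45 and 6.64 at 0 h (log2 difference 0.72, limma adjusted p = 0.078). mRpL19, a counterpart of a bacterial protein at the interface of the subunits, read 7.01, 7.01 and 7.27 at 5 h, against 5.26, 6.56 and 6.72 at 0 h (log2 difference 0.79, limma adjusted p = 0.21). In all 3 of these genes the lowest array at 0 h was replicate 4, and the ages did not overlap.

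Among genes with lower values at 5 h, mRpL17, whose bacterial counterpart lies by the exit of the peptide tunnel, read 5.75, 5.80 and 5.68 at 5 h, against 6.05, 6.29 and 6.73 as lowest, median and highest at 0 h. The ages did not overlap, and the log2 difference of -0.56 did not pass (limma, adjusted p = 0.094). mRpL35 (log2 difference -0.46, limma adjusted p = 0.20) and mRpS30 (log2 difference -0.46, limma adjusted p = 0.27) also separated the ages without passing. mRpS30, like mRpS18A, is named for the small subunit while its mammalian counterpart lies in the large one. mRpS6, a platform protein that binds next to S18 in bacteria, read 5.64, 5.71 and 5.58 at 5 h, against 5.68, 6.30 and 6.60 at 0 h, so that a single array at 0 h reached the values at 5 h (log2 difference -0.63, limma adjusted p = 0.12).

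**Figure D2:**
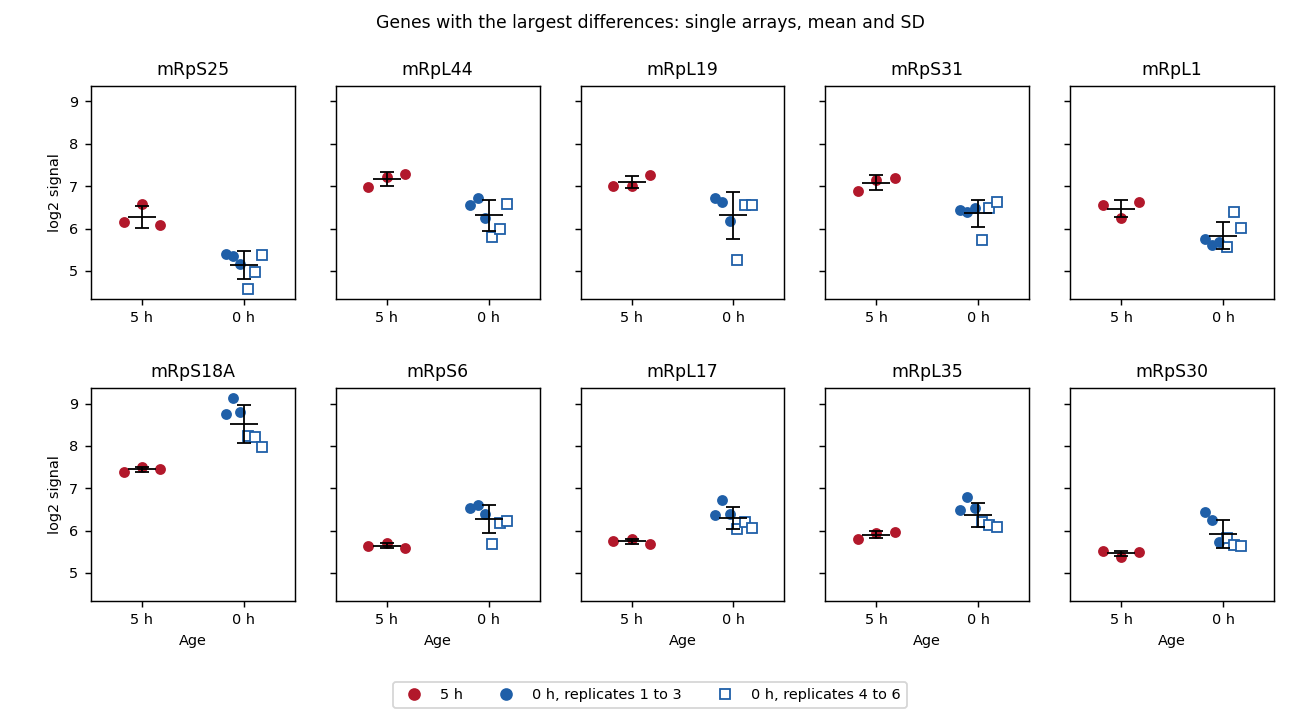
Log2 signal of the 5 genes with the largest positive and the 5 with the largest negative difference on each array, with the mean and SD of each age; open squares are 0 h replicates 4 to 6. For mRpS18A the 3 arrays at 5 h lie between 7.39 and 7.50 and all 6 at 0 h lie at 7.98 or above.

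The 43 large-subunit genes were centred near 0, with a median log2 difference of -0.01, which was -0.12 after repeated quantile normalization and turned to 0.03 after median centring. In limma, 0 of the 43 passed in either direction, and 9 had an unadjusted p under 0.05, beside 2051 of all 13966 probe sets. Their differences ran from -0.56 for mRpL17 to 0.86 for mRpL44, with 20 above 0 and 23 below. The 21 small-subunit genes had a median of -0.18, which was -0.36 after repeated quantile normalization and -0.13 after median centring. In these, 5 differences were above 0 and 16 below, and the 2 called genes were at the ends of the range. Counting mRpS18A and mRpS30 in the large subunit, where their mammalian counterparts lie, gave medians of -0.03 for the large and -0.18 for the small subunit. In all 18 alternatives that give both medians, the small-subunit median was below the large-subunit one, by 0.12 to 0.29. Genes of a subunit share the arrays and are not replicates, and this difference was not tested.

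**Figure D3:**
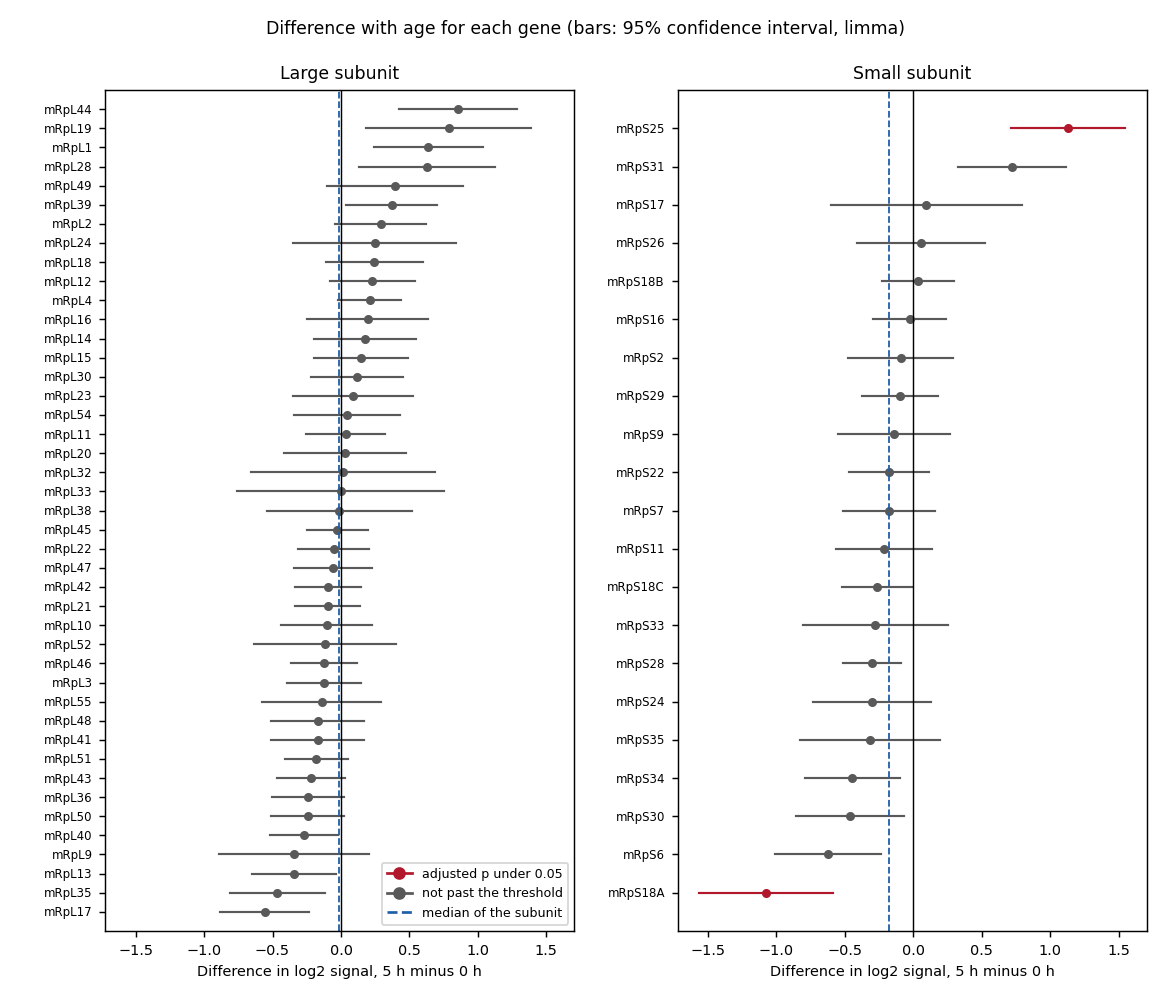
Log2 difference, 5 h minus 0 h, for each gene of the large (left) and small (right) subunit, with its 95% confidence interval from limma; red marks adjusted p under 0.05 and the dashed line is the subunit's median. mRpS25 at 1.13 and mRpS18A at -1.07 are the 2 red points, and the medians are -0.01 for the large subunit, 0.03 after median centring, and -0.18 for the small one.

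Grouped by the bacterial origin of the protein, the 39 genes of families shared with bacteria had a median log2 difference of -0.03, with mRpS18A called lower. The 25 genes of proteins specific to mitochondria had a median of -0.13, with mRpS25 called higher. Within the large subunit these medians were 0.03, which turned to -0.09 after repeated quantile normalization, and -0.12 (28 and 15 genes), and within the small subunit -0.18 and -0.23 (11 and 10 genes), an order that turned after repeated quantile normalization, at -0.38 and -0.33. The small-subunit median was the lower one in either class, also after repeated quantile normalization or median centring. Classes were assigned from textbook ribosome composition, with mRpS28 (log2 difference -0.30) counted as specific to mitochondria, and other assignments were not tried.

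Genes were also read by the place of their proteins in the ribosome, in groups chosen with the values known. The stalks, which bring in translation factors and release used tRNA, are built with mRpL1, mRpL10, mRpL11 and mRpL12, whose log2 differences were 0.64, -0.11, 0.04 and 0.23. mRpL12, the flexible stalk protein that contacts elongation factors, averaged 6.97 ± 0.14 in the 3 arrays at 5 h and 6.74 ± 0.23 in the 6 at 0 h (± SD; limma, adjusted p = 0.46). Its second, dimmer probe set averaged 5.01 at 5 h and 5.09 at 0 h, a difference of opposite sign that also did not pass (limma, adjusted p = 0.69). The pair of probe sets of mRpL11 likewise differed in sign, at 0.04 for the brighter and -0.06 for the dimmer, with neither past the threshold.

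Around the exit of the peptide tunnel, mRpL22, mRpL23, mRpL24, mRpL45 and mRpL47 gave log2 differences of -0.05, 0.09, 0.25, -0.03 and -0.06 beside the -0.56 of mRpL17. In the central protuberance, the crest of the large subunit, mRpL38, mRpL40, mRpL46 and mRpL48 gave -0.01, -0.27, -0.13 and -0.17. mRpL18, also placed there, gave 0.24. In the head of the small subunit, mRpS7, mRpS9, mRpS29, mRpS33 and mRpS35 gave -0.18, -0.14, -0.10, -0.28 and -0.32. Also in the head, mRpS24 gave -0.30 and mRpS31 gave 0.72. mRpS29 is the GTP-binding protein also known as death-associated protein 3. On the platform, mRpS6, mRpS11 and mRpS18C gave -0.63, -0.21 and -0.26. None of these genes passed the test of 5 h against the 6 arrays at 0 h.

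The 64 genes varied more between arrays at 0 h than at 5 h. The median SD of a gene was 0.137 at 5 h and 0.282 at 0 h, while over all probe sets it was 0.109 at 5 h and 0.214 at 0 h. Within 0 h it was 0.258 over replicates 4 to 6 and 0.123 over replicates 1 to 3. By array, the median deviation of the 64 genes from their own means was -0.15, 0.00 and 0.00 at 5 h, and at 0 h it lay between -0.28 in replicate 4 and 0.28 in replicate 2. Replicate 4 had 12 of the 64 genes above their means and replicate 2 had 55.

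In the deposited values the split within 0 h ran through the set. In 0 h replicates 4 to 6, 24 genes were lower than in replicates 1 to 3 without overlap and 1 was higher, mRpL38. That is 37.5% of the set lower, against 16.3% of all probe sets, with 27.3% of all probe sets higher. The median difference, replicates 4 to 6 minus replicates 1 to 3, was -0.29 over the 64 genes, -0.19 over the large-subunit genes and -0.43 over the small-subunit genes, while over all probe sets it was 0.11. In the small subunit 20 of 21 genes read lower in replicates 4 to 6. The 3′ minus 5′ difference of the GAPDH controls moved with the split, at 5.37 to 5.66 in replicates 4 to 6 and 4.36 to 5.34 in replicates 1 to 3, and its part in it was not tested. This split depended on the scaling. After repeated quantile normalization 12 genes were lower (18.8%) and 9 higher without overlap, beside 2210 lower (15.8%) and 2803 higher of all 13966 probe sets. The medians were then -0.03 over the 64 genes, 0.01 over the large subunit and -0.19 over the small, beside 0.04 over all probe sets. After median centring 29 genes were lower (45.3%) and 0 higher, beside 2840 lower (20.3%) and 2486 higher of all probe sets. The median was then -0.36 over the 64 genes, beside 0.03 over all probe sets. Both scalings were chosen for this comparison after seeing the data.

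The age comparison was therefore also made against each set of 0 h arrays. Both comparisons use the same 3 arrays at 5 h, so they are not independent, and limma was fitted to 6 arrays each time. Against replicates 1 to 3, 5 of the 64 genes were called higher at 5 h and 14 lower (7.81% and 21.9%), where 4.37% and 3.74% of all probe sets were. The median log2 difference was -0.19, beside 0.00 over all probe sets. Lower calls were also frequent in 2 other lists in this comparison. Of 33 genes named for cytosolic ribosomal proteins, 13 were called lower and 1 higher. Of 66 oxidative phosphorylation genes, 13 were called lower and 5 higher. Against replicates 4 to 6, 9 were called higher and 2 lower (14.1% and 3.12%), where 12.5% and 9.5% of all probe sets were. The median was 0.06, beside -0.12 over all probe sets, and turned to -0.18 after repeated quantile normalization. That scaling gave 4 genes higher and 10 lower, beside 1407 higher and 1161 lower of all probe sets. Median centring gave 10 genes higher and 1 lower, beside 2075 higher and 611 lower of all probe sets.

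Against replicates 1 to 3, 3 large-subunit genes were called higher (6.98%) and 7 lower (16.3%). In the small subunit 2 were called higher (9.52%) and 7 lower (33.3%), where 4.37% and 3.74% of all probe sets were. Against replicates 4 to 6, 6 large-subunit genes were called higher (14%) and 1 lower (2.33%). In the small subunit 3 were called higher (14.3%) and 1 lower (4.76%), where 12.5% and 9.5% of all probe sets were. The median log2 differences were -0.10 (large) and -0.34 (small) against replicates 1 to 3. Against replicates 4 to 6 they were 0.15 (large) and 0.02 (small), and both turned negative after repeated quantile normalization, to -0.14 and -0.25.

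Because the 5 h arrays are shared, a call against both sets is no independent support. mRpS25 differed by 0.96 and 1.30 against replicates 1 to 3 and 4 to 6 (limma, adjusted p = 0.0025 in each), and mRpS18A by -1.45 and -0.70 (limma, adjusted p = 0.00018 and 0.0039). mRpL44 gave 0.66 and 1.05, mRpS31 0.65 and 0.80, mRpL19 0.59 and 0.98, and mRpL17 -0.76 and -0.36, all past the threshold. Against all 6 arrays at 0 h, the last 4 of these genes did not pass. Over 9 refits against replicates 4 to 6, mRpS25, mRpS18A and mRpL44 passed in all 9, mRpL19 in 5 and mRpL17 in 3, and mRpS31 lost its call there after repeated quantile normalization (limma, adjusted p = 0.10). Over 9 refits against replicates 1 to 3, mRpS25, mRpS18A and mRpL17 passed in all 9, mRpS31 in 8 and mRpL44 in 6. mRpL44 lost that call without 5 h replicate 2 or 3 (limma, adjusted p = 0.065 and 0.062) and in the fit with 3 groups (limma, adjusted p = 0.078), where mRpS31 lost it too (limma, adjusted p = 0.099).

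Other genes passed against a single set. Against replicates 1 to 3, mRpS6 fell by 0.86 (limma, adjusted p = 0.00078) and mRpL9, a counterpart of a bacterial protein that reaches out from the ribosome's side, fell by 0.74 (limma, adjusted p = 0.011), and mRpL1 rose by 0.79 (limma, adjusted p = 0.0028). Against replicates 4 to 6 these gave -0.39, 0.06 and 0.48, none past the threshold. mRpL28 gave 0.43 against replicates 1 to 3 and rose by 0.82 against replicates 4 to 6 (limma, adjusted p = 0.029), a call kept in 5 of 9 refits. Whether a gene's differences against the 0 h sets differ from each other was not tested.

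mRpL33, singled out after its values were seen, was called in opposite directions. It read 6.29, 6.88 and 6.61 at 5 h. At 0 h it read 7.33, 7.03 and 7.28 in replicates 1 to 3 and 6.09, 6.03 and 5.80 in replicates 4 to 6. The arrays at 5 h thus lay between the 0 h sets, with log2 differences of -0.62 against replicates 1 to 3 (limma, adjusted p = 0.028) and 0.62 against replicates 4 to 6 (limma, adjusted p = 0.024), and 0.00 against all 6. After median centring the first call was lost (limma, adjusted p = 0.058), and after repeated quantile normalization the second was (log2 difference 0.37, limma adjusted p = 0.16).

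**Figure D4:**
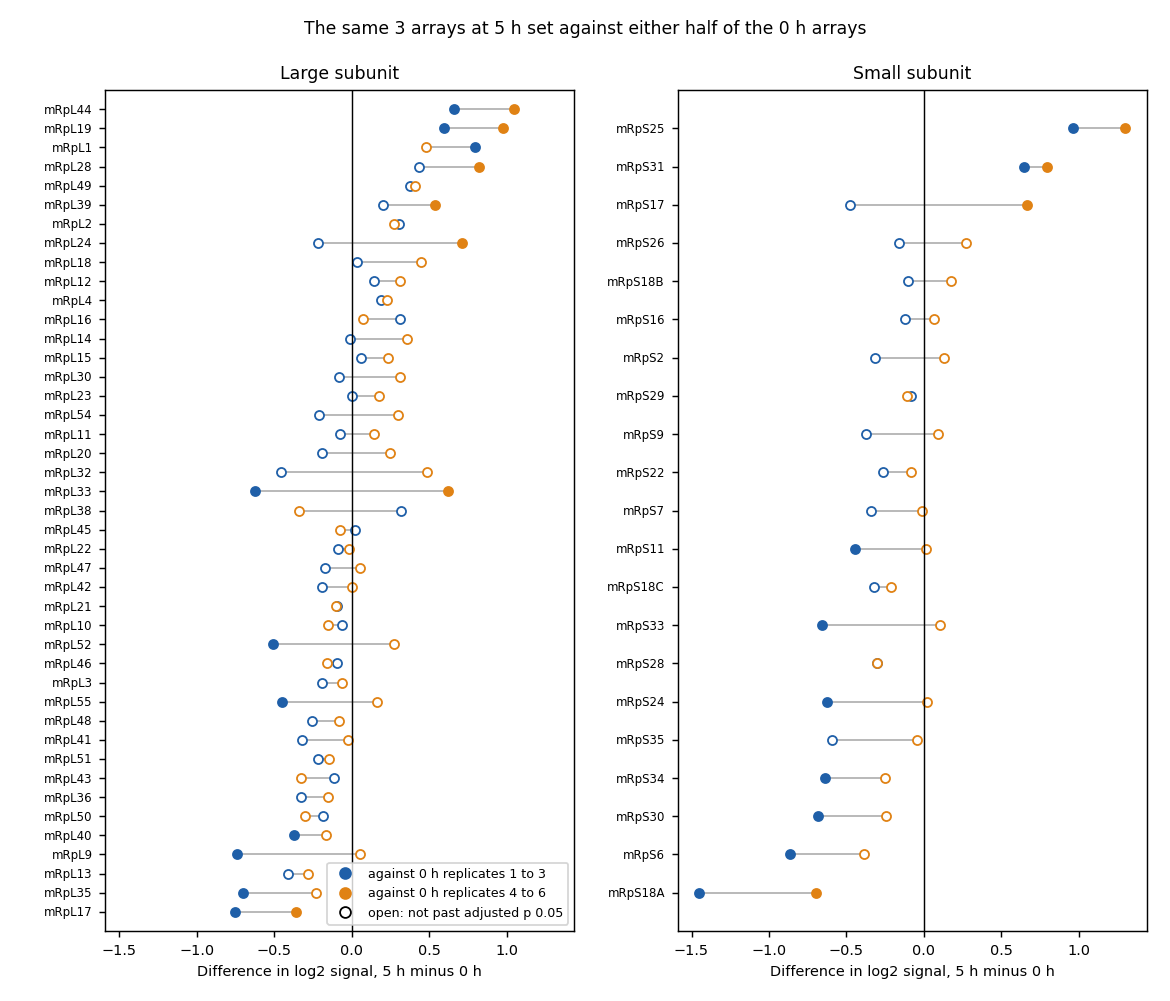
Log2 difference, 5 h minus 0 h, of each gene against 0 h replicates 1 to 3 (blue) and against 0 h replicates 4 to 6 (orange), with filled points past an adjusted p of 0.05; both use the same 3 arrays at 5 h. mRpS25 lies at 0.96 and 1.30 and mRpS18A at -1.45 and -0.70, while mRpL33 is filled at -0.62 and at 0.62.

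Other genes of mitochondrial gene expression were read from the same 9-array fit, in lists chosen from textbook function. In that fit 2051 of all 13966 probe sets had an unadjusted p under 0.05, the count to set beside those of the lists. The mitoribosomal genes tko (mRpS12) and bonsai (mRpS15) carry other symbols and so are not among the 64: their log2 differences were 0.27 and 0.13, with 0 called by limma and 0 at an unadjusted p under 0.05. Of 8 mitochondrial translation factors, 0 passed in limma, 2 had an unadjusted p under 0.05, and the median was 0.22. Only 4 of the 8 were above background on all 9 arrays, and mIF3 was below it at both ages. The largest differences were those of mEFTs, an exchange factor for the Tu factors, at 0.77 (limma, adjusted p = 0.094), and of mEFTu2, 1 of the Tu factors, which deliver aminoacyl-tRNA. mEFTu2 read 7.23, 7.27 and 7.46 at 5 h, against 6.10 to 6.88 at 0 h (log2 difference 0.72, limma adjusted p = 0.052). The other Tu factor, mEFTu1, gave 0.35 and the elongation factor mEFG1 gave 0.30. Against 0 h replicates 4 to 6, 4 of the 8 passed, all higher at 5 h, where 12.5% of all probe sets did, and against replicates 1 to 3, 2 passed, both higher, where 4.37% did.

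Of 15 mitochondrial aminoacyl-tRNA synthetases, which load tRNAs, 0 passed in limma, 4 had an unadjusted p under 0.05 and the median was 0.13. Only 9 of them were above background on all 9 arrays, and ArgRS-m, GluRS-m, LeuRS-m and ValRS-m were below it at both ages. HisRS, whose gene may serve cytosol and mitochondria alike, had the largest difference, 0.86 (limma, adjusted p = 0.097), and PheRS-m gave 0.47 (limma, adjusted p = 0.22). Of 15 genes for mitochondrial DNA and RNA upkeep, 0 passed in limma, 1 had an unadjusted p under 0.05 and the median was 0.12. Among them were mTTF, a transcription termination factor, at 0.56 and the chaperonin Hsp60A at 0.54. On all 9 arrays 13 of these 15 were above background, and PolG1 was below it at both ages. Of 5 regulators of mitochondrial biogenesis, 0 passed in limma, 2 had an unadjusted p under 0.05 and the median was 0.06. ewg, the fly relative of nuclear respiratory factor 1, gave 0.68 (limma, adjusted p = 0.18) and the nuclear receptor ERR gave 0.42 (limma, adjusted p = 0.12).

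Nuclear genes of the respiratory chain and genes named for cytosolic ribosomal proteins were read beside them. Of 66 oxidative phosphorylation genes, 57 of them above background on all 9 arrays, 1 was called higher and 0 lower, and the median was -0.04. The shares of all probe sets were 1.01% and 0.236%. The called gene was ND-MNLL, a subunit of complex I, which read 8.43, 8.83 and 9.06 at 5 h, against 7.85 to 8.30 at 0 h (log2 difference 0.74, limma adjusted p = 0.041). After repeated quantile normalization 0 of the 66 were called higher and 5 lower, beside 153 and 101 of all 13966 probe sets. Against 0 h replicates 4 to 6, 10 of the 66 were called higher and 2 lower in the deposited values. In that comparison 1 of 33 genes named for cytosolic ribosomal proteins was called higher and 4 lower. The shares of all probe sets there were 12.5% higher and 9.5% lower. Against all 6 arrays at 0 h, 0 of the 33 genes named for cytosolic ribosomal proteins were called higher and 2 lower, with a median of -0.14. The list includes RpL24-like and RpL7-like, which are named only as relatives of ribosomal proteins. RpS10a, RpL22-like and RpL10Aa were below background at both ages. The median is the value of RpS19b, which averaged 3.71 at 5 h and 3.84 at 0 h. RpS7 fell by 0.80 (limma, adjusted p = 0.0088) and RpL28 fell by 0.53 (limma, adjusted p = 0.041). RpS7 read 9.95, 9.79 and 9.72 at 5 h, against 10.36 to 10.78 at 0 h.

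**Figure D5:**
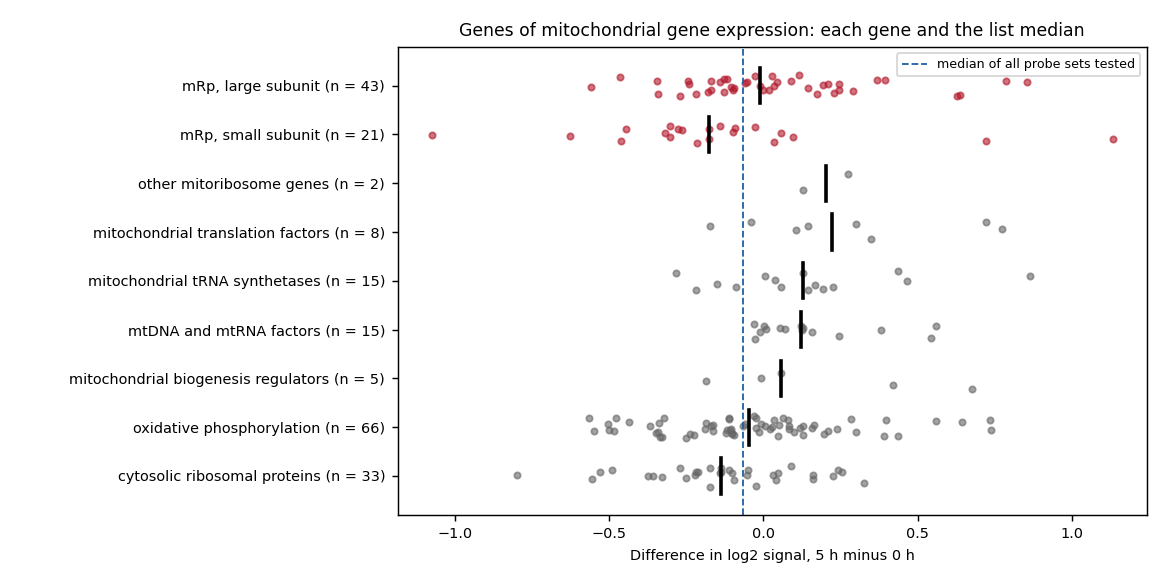
Log2 difference, 5 h minus 0 h, of each gene (points) and median (black bar) in the mitochondrial ribosomal protein genes (mRp, red) and in other lists (grey), beside the median of all 13966 probe sets (dashed). Medians are -0.01 for the large subunit, 0.03 after median centring, and -0.18 for the small subunit. They are 0.22 for the translation factors and -0.14 for the genes named for cytosolic ribosomal proteins.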

How the data were processed

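The authors summarised probe sets with RMA. Per the submitters' processing notes, which state no version, the deposited values are log2 signals made in Affymetrix Expression Console. RMA normally equalises arrays, yet column medians ran from 4.30 to 4.44, and the sources used here do not say which arrays were processed as 1 set. No counts underlie these signals, so precision rests on how many arrays there are.

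Ages came from the descriptions and age labels. Of 14010 probe sets, 44 controls were left out. The remaining 13966 were tested with no filter in limma 3.58.1 (R 4.3.3), with a two-sided moderated test from lmFit and eBayes and adjusted p-values (Benjamini-Hochberg) over all of them. Symbols came from the platform annotation (12443 probe sets with 1 symbol, 327 with several, 1196 with none), and updating through RefSeq changed 0 of the 64. The files name no genome build, and no coordinates or sequences are given. The steps were tested on simulated data with known changes.

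The members, lists, groupings and naming rule were chosen with earlier results of these data known. Named are genes past the threshold, the 5 largest differences in each direction, the 4 largest called ones per direction against each 0 h set, the 3 highest and 3 lowest signals per subunit, genes with more than 1 probe set, and mRpL12, mRpS18A and mRpS30. mRpL33, mRpL38, mRpS18B and the genes given by place in the ribosome were chosen after their values were seen. Other cell types were read from marker lists. Of the markers of fat body (5 genes), salivary gland (8), hemocytes (8) and dividing cells (8), 0 passed in limma, with 1, 1, 1 and 2 at an unadjusted p under 0.05. Of all 13966 probe sets, 2051 had such a p. Of 6 muscle markers 1 was called higher (bt), of 6 neuronal markers 1 (elav), and of 9 mushroom body markers 2 (toy and 14-3-3zeta).

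Alternatives were the array with conflicting labels counted at either age, each array left out, a replicate block, repeated quantile normalization, median centring, a filter at background, averaging the probe sets of a gene, a trended and robust prior, array weights, the actin difference as a covariate, other thresholds and a fit with 3 groups.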

Additional observations from a re-analysis of the deposited data

Results flagged for a closer look

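The 6 arrays at 0 h were examined for a value far from the others in 77 genes, the 64 mitochondrial ribosomal protein genes and 13 other genes named above, and 3 genes had one. Chance flags about 1 in 20 such groups. mRpS31 read 5.72 on 0 h replicate 4, while the nearest of the other arrays read 6.39. mRpS18C read 6.82 on 0 h replicate 6, with the nearest at 7.09. PheRS-m read 7.12 on 0 h replicate 4, with the nearest at 7.60.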

How the results depend on the processing

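Against all 6 arrays at 0 h, 2 of the 64 genes passed (mRpS25 and mRpS18A). That count was 0 with the array of conflicting labels as 0 h, 0 with the actin difference as a covariate, 0 at a threshold of 0.01, 1 with median centring, 1 with a trended and robust prior, 5 with repeated quantile normalization, 5 at a threshold of 0.10 and 20 with array weights (8 higher, 12 lower). Without 1 array at a time it ran from 0, without any of the 5 h replicates, to 4, without 0 h replicate 4; it was 1 without 0 h replicate 2 or 3. Replicate numbers 1 to 3 are shared by the ages only as numbers: deviations of same-numbered arrays correlated at -0.40, 0.00 and 0.22. A replicate block gave 15 genes (4 higher, 11 lower) and in effect uses only 0 h replicates 1 to 3. Against 0 h replicates 1 to 3, the 19 calls became 12 in a fit with 3 groups and 12 to 16 with 1 array left out, with 12 without 0 h replicate 2 or 5 h replicate 3. Against replicates 4 to 6, the 11 calls became 3 (without 5 h replicate 3) to 16 (without 0 h replicate 4), with 4 without 5 h replicate 2, and the median turned to -0.18 with repeated quantile normalization. The causes were not tested. Calls over all probe sets were counted only for the deposited values, repeated quantile normalization and median centring. The counts of these genes in the other alternatives, array weights and the replicate block included, therefore have no share of all probe sets beside them. The other 89 values of counts and medians, apart from scalings chosen after seeing the data, stayed within 1.5 times the count or within the spread between replicates. Over single genes, 275 values kept their side of the threshold, 26 came to pass and 35 ceased to, with 0 changes of sign. Over the 7 other lists, 3 calls became 10 with repeated quantile normalization, chosen after seeing the data.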

Other observations

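The array titled as 5 h and described as 0 h was read beside both ages without being assigned. Of the 64 genes, it lay within the range of the 3 arrays at 5 h for 33 and within the range of the 6 arrays at 0 h for 50, with 27 in both and 8 in neither. Its median deviation from the genes' 9-array means was -0.02. For the 2 called genes it fell between the ages in mRpS25, at 5.63, against 6.08 to 6.58 at 5 h and 4.58 to 5.40 at 0 h, and within the 0 h range in mRpS18A, at 8.10, against 7.39 to 7.50 at 5 h and 7.98 to 9.14 at 0 h. In mRpL44 it read 6.80, against 6.99 to 7.30 at 5 h and 5.81 to 6.73 at 0 h. In mRpS31 it read 6.79, against 6.88 to 7.21 at 5 h and 5.72 to 6.64 at 0 h.

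The genes of the set do not lie beside one another: all 64 were found in the RefSeq gene table, and 0 pairs were neighbouring genes.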
